A study of Macaca mulatta with 144 samples.

Results

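miR-122a-5p and miR-148a-3p, a pair of miRNAs abundant in liver, were followed in the serum of rhesus macaques (non-human primates, NHPs) given total body irradiation (TBI). Both were taken by name from the raw count table, where they stand as mml-miR-122a-5p and mml-miR-148a-3p, so that 2 of its 908 miRNAs were described. Serum was drawn from 36 NHPs of Chinese origin, of which 19 were male and 17 female with ages spanning several years, before TBI and on days 1, 2 and 6 after it, and small RNA was sequenced from each of the 144 sera. The animals formed 6 groups of 6, which received a radiation dose (RD) of cobalt gamma rays in a single exposure, rising in steps of 0.5 Gy from 6.0 to 8.5 Gy. In all, 21 NHPs were labelled Deceased and 15 Survived, and from the lowest to the highest RD the groups held 2, 3, 4, 2, 5 and 5 deceased animals. Every NHP was irradiated, so that each animal's own serum before TBI was the only baseline, and no sham group was followed over the same days.

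miRNAs are short RNAs that guide silencing complexes to messenger RNAs and lower their translation and stability. miR-122 is made almost only by hepatocytes, where it acts on lipid and cholesterol metabolism. Dying or injured hepatocytes release it into blood, which made it a widely used serum marker of liver injury. miR-148a-3p is abundant in liver too, but also in gastrointestinal and immune cells. It belongs to a family with miR-148b-3p and miR-152-3p, which share its seed, the stretch that pairs with target messenger RNAs. In serum, a higher count cannot be told apart from a lower count of everything else, since each library gives shares of its own reads and not amounts per volume.

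The 2 miRNAs differed widely in their counts. miR-148a-3p had counts in 144 of 144 libraries, between 3 and 51067 with a median of 1365.5, and ranked 9 by its summed count among the 626 miRNAs with any count. miR-122a-5p had a count in 66 of 144 libraries, with a median of 0 and a highest value of 268, and ranked 203. The summed counts were 559698 for miR-148a-3p and 801 for miR-122a-5p, which was 0.779% and 0.00111% of all reads counted. Counts of different miRNAs also carry ligation and amplification differences of the library kit, so that this ratio is one of reads and not of molecules. miR-486-5p, which is abundant in red blood cells, took a median of 71.7% of a library.

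Total counts per library ran from 11174 to 4118401 with a median of 280254.5, and set how precisely miR-122a-5p could be measured. Libraries with a miR-122a-5p count had a median total of 371652 and those without one 232840. In the 78 libraries at 0, the limit that a count of 0 allows (3 counts) was 1.44 to 929 CPM (counts scaled to a common library size) with a median of 12.8 CPM, which covers counting error only. Of the 66 libraries with a count, 39 held 1 to 3 counts and 17 held 10 or more. 7 libraries had totals under 28025 counts, 10% of the median, and miR-148a-3p had 3 to 214 counts in these. The serum of RA2265F before TBI and that of RA2694M on day 1 were deposited with identical counts (733 of miR-148a-3p and 0 of miR-122a-5p in each), although they belong to different animals, and the results were also computed without both. No sequencing batch was given in the labels.

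A few libraries held most of the miR-122a-5p signal. The grid of raw counts by animal shows that RA2267F (6.5 Gy, Deceased) alone held 340 of the 801 counts (42.4%), with 49 before TBI and 3, 20 and 268 on days 1, 2 and 6. It was the only NHP with a count at all 4 time points, while 5 NHPs had none at any. Its share was 95.3 CPM of the library total before TBI (95% Clopper-Pearson interval 70.5 to 126), 6.15 CPM on day 1 (1.27 to 18.0), 88.6 CPM on day 2 (54.1 to 137) and 181 CPM on day 6 (160 to 204). The day 1 value of this animal thus lay below its other values by more than counting error. RA1782F (6.5 Gy, Deceased) had 70 counts on day 2 against 0 on day 1, and RA2705M (6.5 Gy, Deceased) had 49 on day 6 against 0 on day 1. RA2816M (8.0 Gy, Deceased) had 30 counts on day 1 in a library of only 23222, or 1292 CPM of the library total (872 to 1844). After TMM scaling, which divides each library by a factor for its composition, the highest libraries were that of RA1782F on day 2 (643 CPM), that of RA2705M on day 6 (440 CPM), that of RA2816M on day 1 (331 CPM) and that of RA2267F before TBI (281 CPM). The 6 animals of the 6.5 Gy group held 61.3% of all miR-122a-5p counts.

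**Figure D1:**
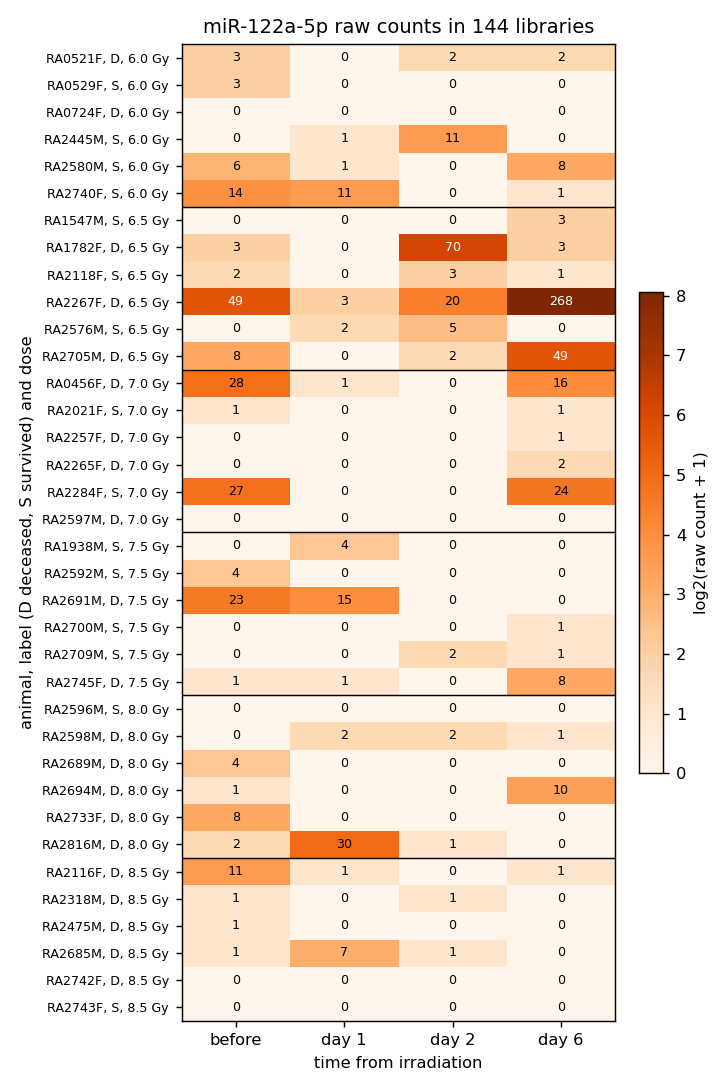
Raw counts of miR-122a-5p in each of the 144 libraries, with animals in rows ordered by RD (D, Deceased; S, Survived) and time points in columns; the colour gives log2(raw count + 1). Counts of 20 or more stand in 10 libraries, and 268 of the 801 counts come from RA2267F on day 6.

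The day 6 library of RA2267F was also high in other miRNAs that were listed here for liver. It ranked 1 of 144 for miR-192-5p (15492 CPM after TMM scaling, against a median of 1441) and 1 for miR-885-5p (50.3 CPM against a median of 0), and 2 for miR-194-5p, which is made from the same clusters as miR-192 (33.4 CPM against 6.30). miR-148a-3p did not stand apart there, with 6588 CPM against a median of 4218 and rank 44. In the day 2 library of RA1782F, miR-192-5p ranked 7 (6955 CPM), miR-194-5p ranked 50 (1 count), miR-885-5p had 0 counts and miR-148a-3p ranked 69. In the day 1 library of RA2816M, miR-192-5p ranked 72 (1444 CPM) and miR-148a-3p ranked 119 (2360 CPM). miR-122a-5p was thus high there without miR-192-5p and miR-148a-3p. miR-194-5p ranked 8 (2 counts) and miR-885-5p ranked 11 (1 count) there, ranks that rest on very few counts. miR-486-5p ranked 144 of 144 in that library, which had the highest miR-122a-5p share of its total and a low total. The libraries of RA2705M on day 6 and of RA2267F before TBI were not examined in this way.

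Across the 144 libraries, the 5 miRNAs whose levels ranked most like those of miR-122a-5p were miR-192-5p (Spearman rho 0.48), miR-100-5p (0.40), miR-7186-5p (0.33), miR-146b-5p (0.32) and miR-24-3p (0.30). For miR-148a-3p they were miR-409-3p (0.71), miR-6529-5p (0.70), its own passenger arm miR-148a-5p (0.66), miR-654-3p (0.64) and miR-889-3p (0.64). Median rho over all other miRNAs tested was 0.04 for miR-122a-5p and 0.10 for miR-148a-3p. Levels are log2(TMM CPM + 1), and these values describe libraries that share animals and scaling factors. The level of miR-148a-3p had rho 0.29 with the TMM factor and -0.40 with a haemolysis score (the level of miR-451, a red blood cell miRNA, minus that of miR-23a-3p). For miR-122a-5p these were -0.01 and -0.02, and rho with the total count was 0.17.

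The first question was whether either miRNA moved with time since irradiation. miR-122a-5p had a count in 22 of 36 NHPs before TBI, in 13 on day 1, in 12 on day 2 and in 19 on day 6. Its level averaged 1.93 ± 2.18 before TBI, 1.12 ± 1.97 on day 1, 1.15 ± 2.22 on day 2 and 2.16 ± 2.67 on day 6 (SD, n = 36 each). On day 1, 13 NHPs lost and 4 gained a count against their own baseline (exact sign test, two-sided, p = 0.049, 0.0736 after adjustment over 3 days). On day 2, 14 lost and 4 gained one (p = 0.0309, adjusted 0.0736), and on day 6, 9 lost and 6 gained one (p = 0.607). These tests of detection were added after the zeros had been seen, and none passed after adjustment.

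miR-122a-5p did not pass the test of the edgeR quasi-likelihood fit on any day. This fit compared the 36 libraries of each day with the 36 before TBI and did not pair them by animal. Log2 fold changes against the baseline were -0.87 on day 1 (SE 0.77, adjusted p = 0.717), 0.30 on day 2 (SE 0.72, adjusted p = 0.873) and 0.67 on day 6 (SE 0.70, adjusted p = 0.680), where 19 of 290 miRNAs tested (6.55%) passed on day 1, 2 (0.69%) on day 2 and 19 (6.55%) on day 6. On days 1 and 6, 14 of these were higher (4.83%) and 5 lower (1.72%). In the F test over the 3 days, 27 miRNAs passed (9.31%), and neither miR-122a-5p (adjusted p = 0.506) nor miR-148a-3p (adjusted p = 0.609) was among them. With the animal as replicate block the day 6 count was 4, of which 1 was higher, with library totals it was 5, of which 1 was higher, and with the block the day 2 estimate of miR-122a-5p became -1.21 (adjusted p = 0.390). The day 1 result turned on 1 library, since without that of RA2816M the log2 fold change was -2.47 (SE 0.76, adjusted p = 0.0347), which passed. That library was chosen for its miR-122a-5p value after the data were seen. Without all 7 libraries of low total, among them that one, the value was -2.31 (adjusted p = 0.0699). Without the day 2 library of RA1782F the day 2 value was -1.78 (adjusted p = 0.265). By animal, day 1 levels were below the baseline in 19 NHPs and above it in 7, with a mean difference of -0.81 ± 2.65 (SD, n = 36, sign-flip permutation p = 0.0765, adjusted over 6 tests 0.191). On day 2 they were below in 21 and above in 5, with a mean difference of -0.77 ± 2.70 (permutation p = 0.0953, adjusted 0.191). Means of a log level and a fold change fitted to the counts of single libraries weigh high libraries differently, and on day 2 they had opposite signs.

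miR-148a-3p varied less. Its level averaged 12.18 ± 0.89 before TBI, 12.17 ± 1.14 on day 1, 11.77 ± 1.07 on day 2 and 11.95 ± 1.17 on day 6 (SD, n = 36 each). The lowest, median and highest values were 1188, 4873 and 15222 CPM before TBI, 460, 5072 and 14929 CPM on day 1, 449, 3282 and 12961 CPM on day 2, and 281, 3535 and 14973 CPM on day 6. The 4 ranges overlapped, as the plot of levels by time point shows. Log2 fold changes were 0.09 on day 1 (95% interval -0.36 to 0.54), -0.32 on day 2 (-0.77 to 0.13) and -0.06 on day 6 (-0.52 to 0.39), with edgeR adjusted p = 0.967, 0.552 and 0.928. On day 2, 23 NHPs lay below and 13 above their baseline, with a mean difference of -0.41 ± 1.20 (SD, n = 36, sign-flip permutation p = 0.0508, adjusted over 6 tests 0.191). These intervals leave room for changes of up to 1.46-fold upwards on day 1 and to 0.586 of the baseline on day 2.

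**Figure D2:**
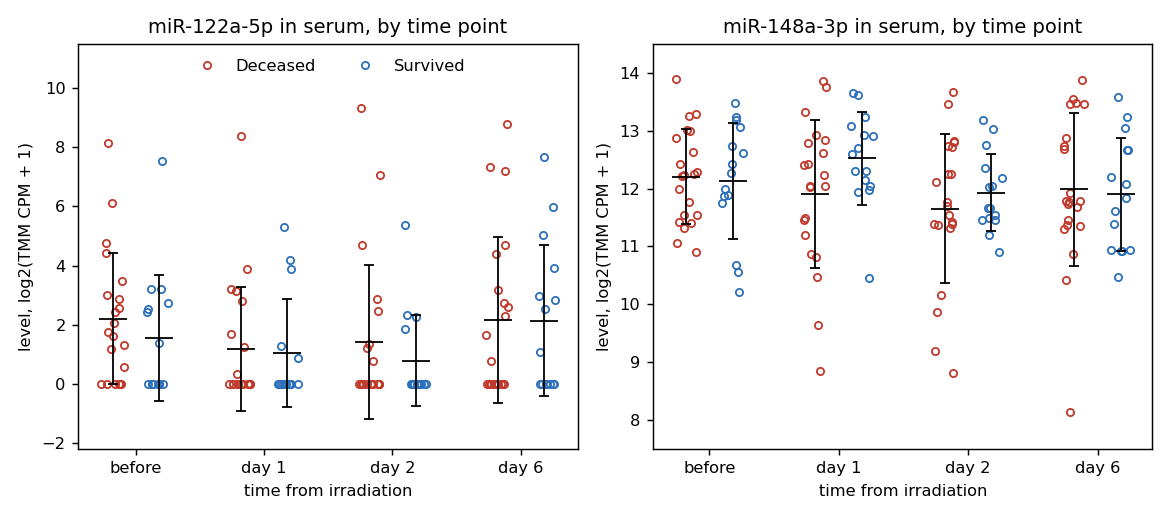
Levels of miR-122a-5p (left) and miR-148a-3p (right) in each serum by time point, for NHPs labelled Deceased (red, n = 21) and Survived (blue, n = 15); black bars give the mean ± SD. Points at 0 are libraries without a miR-122a-5p count, and the groups of both miRNAs overlap at every time point.

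The other members of the family and the passenger arm of miR-148a did not pass either. miR-148b-3p (127 libraries with a count, 2866 counts in all) had log2 fold changes of -0.31, -0.17 and -0.20 on days 1, 2 and 6, and miR-152-3p (104 libraries, 828 counts) of 0.05, 0.15 and -0.04. miR-148a-5p, the passenger arm, was found in 134 libraries with 38873 counts, and its values were -0.24, -0.27 and -0.42. In the 121 libraries with at least 10 counts of miR-148a-5p, the 3p arm had a median of 15.9 times the counts of the 5p arm (4.93 to 75.8). This ratio had a median of 14.8 before TBI, 19.1 on day 1, 14.6 on day 2 and 15.7 on day 6. miR-122a-3p, the passenger arm of miR-122a, had 17 counts in 6 libraries, 10 of them in the day 6 library of RA2267F, and was not tested. Of the 12 miRNA names on the liver list, 10 were in the table and 6 had a count in at least 40% of libraries and were tested. None of these 6 passed on days 1, 2 or 6, and their median log2 fold change was -0.11, -0.30 and 0.00, beside 0.02, -0.07 and -0.04 over all miRNAs tested.

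The second question was whether the levels followed RD. After TBI, miR-122a-5p had counts in 8, 12, 6, 7, 6 and 5 of 18 libraries in the groups from the lowest to the highest RD, with 37, 429, 45, 32, 46 and 11 counts in all. The level of an animal averaged over days 1, 2 and 6 was 1.37 ± 1.24 at 6.0 Gy, 3.19 ± 1.75 at 6.5 Gy, 1.29 ± 1.13 at 7.0 Gy, 1.22 ± 1.02 at 7.5 Gy, 1.40 ± 1.69 at 8.0 Gy and 0.38 ± 0.57 at 8.5 Gy (SD, n = 6 each). By its mean the 6.5 Gy group was thus the highest and the 8.5 Gy group the lowest, with the 4 other means between 1.22 and 1.40. The ranges overlapped, with 0.99 to 5.86 at 6.5 Gy and 0.0 to 1.47 at 8.5 Gy. Single groups were not tested against each other. Before any irradiation the same groups had 2.07 ± 1.63, 3.03 ± 3.05, 1.91 ± 2.94, 1.72 ± 2.40, 1.31 ± 1.18 and 1.51 ± 1.84.

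In the fit that takes each library as a sample, miR-122a-5p had a slope of -1.50 per Gy after TBI on the log2 scale (SE 0.41, edgeR adjusted p = 0.00654). RD varies only between the 36 NHPs, and this fit counts 3 sera of each NHP after TBI as replicates. With the counts of days 1, 2 and 6 summed to 1 sample per NHP, a fit added after the data were seen, the slope was -1.36 per Gy (SE 0.57, adjusted p = 0.145) in edgeR and -1.17 (SE 0.57, adjusted p = 0.184) in DESeq2, and neither passed, while 37 and 34 of the 363 miRNAs tested did. In the fit by library it was one of 30 miRNAs of 290 (10.3%) that passed, of which 26 (8.97%) had a negative and 4 (1.38%) a positive slope. The slopes by day rest on 1 serum per NHP, but come from this same fit. Their SE and p thus use a spread estimated over all 144 libraries, 4 per NHP. By day, the slope was -3.01 per Gy on day 2 (SE 0.72, adjusted p = 0.0142), where 1 miRNA (0.345%) passed, and -2.16 on day 6 (SE 0.73, adjusted p = 0.0446), where 24 (8.28%) passed and 21 (7.24%) with a negative slope. On day 1 it was 0.66 (SE 0.64, adjusted p = 0.592), where 2 (0.69%) passed. Before irradiation, when no RD had been given, it was -1.69 per Gy (SE 0.66, unadjusted p = 0.0111, adjusted p = 0.402), where 0 of 290 (0%) passed in edgeR and in DESeq2 and 21 had an unadjusted p under 0.05. Without RA2267F the slope before TBI was -0.85 (adjusted p = 0.993). The slope of the change against the baseline was 0.18 per Gy (SE 0.90, adjusted p = 0.997), and 0 of 290 miRNAs (0%) passed that test in edgeR and in DESeq2, with 8 at an unadjusted p under 0.05. By day, the slope of the change was 2.35 per Gy on day 1 (SE 0.91, unadjusted p = 0.0107, adjusted p = 0.382), -1.32 on day 2 (SE 0.95, adjusted p = 0.979) and -0.48 on day 6 (SE 1.00, adjusted p = 0.945), so that the days differed in sign. None of these differences from the slope before TBI passed. The plot of levels by RD shows both sets of values.

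The slope after TBI depended on the scaling. With library totals alone it was -0.53 per Gy (adjusted p = 0.429), when 0 of 290 miRNAs passed, and with DESeq2 it was -0.90 per Gy (adjusted p = 0.148). With library totals the median slope over all 290 miRNAs was itself 0.21 per Gy, against 0.00 with TMM, and miR-122a-5p lay 0.73 below that median. RLE factors kept the call (-1.26 per Gy, adjusted p = 0.0359), but 9 of the 20 miRNAs called with them had a positive slope, as had 9 of 14 with DESeq2. After TBI the log2 TMM factor had a slope of 0.27 per Gy (SE 0.13, permutation p = 0.0391, n = 36 NHPs) and the log2 total count one of -0.42 per Gy (SE 0.17, permutation p = 0.0203), both 0.0781 after adjustment over 4 slopes, and their part in the slope was not tested. Without RA2740F (6.0 Gy) the slope was -1.22 per Gy (adjusted p = 0.0616), and in each of the 35 other fits by library that left out 1 NHP it passed. The 6.5 Gy group held 61.3% of all miR-122a-5p counts and had the highest mean level after TBI (3.19). No fit by library left out this whole group. Over animals, the slope of the level after TBI stayed negative without this group, but was smaller in size than with it. With library totals the slopes on days 2 and 6 did not pass either (-2.05 and -1.72 per Gy). The day 2 slope no longer passed without the library of RA1782F (-1.75 per Gy, adjusted p = 0.333) or with DESeq2 (-2.26 per Gy, adjusted p = 0.200), and passed in 34 of 36 fits that left out 1 NHP. The day 6 slope no longer passed without the library of RA2267F (-1.89 per Gy, adjusted p = 0.0921), with RLE factors (-2.05, adjusted p = 0.117) or with DESeq2 (-1.73, adjusted p = 0.227), and passed in only 17 of the 36 fits, where it ran from -2.58 to -1.32 per Gy. Over animals, the level after TBI had a slope of -0.59 per Gy (SE 0.27, permutation p = 0.0378, adjusted over 18 slopes 0.549), and that before TBI -0.46 per Gy (SE 0.42, permutation p = 0.284). Slopes of the level after TBI were similar within Deceased (-0.72 per Gy, SE 0.42, permutation p = 0.106, n = 21) and within Survived animals (-0.70 per Gy, SE 0.34, permutation p = 0.0610, n = 15), and neither passed.

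miR-148a-3p showed no slope that passed. It was 0.04 per Gy after TBI (95% interval -0.17 to 0.25, edgeR adjusted p = 0.920), -0.13 before TBI (-0.50 to 0.25, adjusted p = 0.992) and 0.16 for the change (-0.27 to 0.60, adjusted p = 0.997). The level after TBI averaged 12.01 ± 0.71 at 6.0 Gy, 12.14 ± 0.69 at 6.5 Gy, 12.07 ± 0.28 at 7.0 Gy, 12.02 ± 0.67 at 7.5 Gy, 11.23 ± 0.53 at 8.0 Gy and 12.31 ± 0.51 at 8.5 Gy (SD, n = 6 each), so that the lowest and the highest values came from the neighbouring groups of 8.0 and 8.5 Gy. At 7.0 Gy all 6 NHPs lay below their own baseline, with a mean difference of -0.52 ± 0.32 (SD, n = 6). This gave the smallest p that an exact sign-flip test of 6 animals allows (p = 0.0313, two-sided), which was 0.375 after adjustment over the 12 tests of both miRNAs by RD. Of miR-122a-5p, no RD group had a mean change that passed, and their means ran from -1.13 (8.5 Gy) to 0.16 (6.5 Gy). Within Deceased animals, the slope of the change was -0.19 per Gy for miR-122a-5p (SE 0.49, permutation p = 0.709, n = 21) and -0.02 for miR-148a-3p (SE 0.29, permutation p = 0.938, n = 21). Within Survived animals it was 0.15 (SE 0.85, permutation p = 0.869, n = 15) and 0.24 (SE 0.35, permutation p = 0.499, n = 15).

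**Figure D3:**
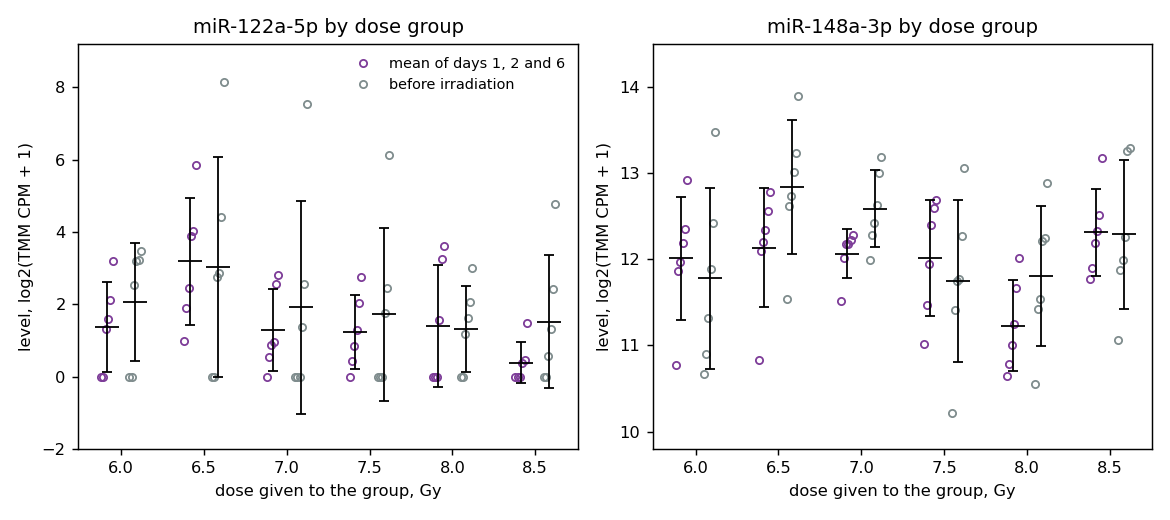
Level per NHP of miR-122a-5p (left) and miR-148a-3p (right) in the 6 RD groups, as the mean of days 1, 2 and 6 (purple) and before irradiation (grey); black bars give the mean ± SD (n = 6). For miR-122a-5p the group later given 6.5 Gy was highest both after (3.19) and before (3.03) TBI.

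Other miRNAs of the liver list were compared on the same slope. On the liver list, 2 of 6 tested miRNAs passed with a negative slope after TBI in the fit by library, miR-122a-5p and miR-192-5p (-0.40 per Gy, SE 0.13, edgeR adjusted p = 0.0301), and none with a positive one, beside 26 (8.97%) and 4 (1.38%) of all 290. The call of miR-192-5p was lost with RLE factors (-0.29 per Gy, adjusted p = 0.162), DESeq2 (-0.29, adjusted p = 0.114) and library totals (-0.07, adjusted p = 0.807), and with 1 sum per NHP (-0.37, adjusted p = 0.207). The other 4 had -0.07 (miR-194-5p), -0.33 (miR-885-5p), 0.04 (miR-148a-3p) and 0.06 per Gy (miR-148a-5p), and the median of the list was -0.20 beside 0.00 over all miRNAs tested. After TBI the liver list took a median of 0.43, 1.05, 0.64, 0.75, 0.62 and 1.24% of a library from the lowest to the highest RD. This share is mostly miR-148a-3p and miR-192-5p.

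Lists of other cell types were read beside these slopes. Of 8 tested miRNAs of red blood cells, 2 passed with a negative slope in the fit by library, beside 8.97% of all (miR-92a-3p and miR-363-3p, -0.40 and -0.42 per Gy, but with values of -0.0049 and 0.11 with library totals, where neither passed). The red blood cell list took 47.6% to 98.4% of a library after TBI. Its medians were 88.7, 82.1, 77.7, 79.4, 78.2 and 81.2% from the lowest to the highest RD. With 1 sum per NHP, miR-92a-3p passed (-0.88, adjusted p = 0.000827) and miR-363-3p did not (-0.46, adjusted p = 0.0817). Of 2 muscle miRNAs 1 passed with a positive slope, beside 1.38% of all (miR-133a, 0.67 per Gy, and 0.76 with 1 sum per NHP, adjusted p = 0.0223), and none of 7 platelet and endothelial, 8 lymphocyte, 1 pancreas and 4 intestinal epithelium miRNAs passed. On the days themselves, none of the red blood cell or platelet miRNAs passed. On day 1, 3 of 4 intestinal miRNAs rose and 1 fell, and 1 of 2 muscle miRNAs rose, beside 4.83% higher and 1.72% lower of all 290. Of 8 lymphocyte miRNAs, 1 fell on day 2 (0.345% of all) and 1 on day 6 (1.72% of all), and the pancreas miRNA miR-375 rose on each day. Their part in the results for both liver miRNAs was not tested. The haemolysis score was 4.04 ± 1.02 before TBI, 4.30 ± 1.64 on day 1, 3.99 ± 1.44 on day 2 and 4.26 ± 2.34 on day 6 (SD, n = 36 each), and with it as a covariate the slope of miR-122a-5p was -1.41 per Gy (adjusted p = 0.0196).

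The third question was whether deceased and surviving NHPs differed, which was compared within RD because more animals died at higher RD. miR-122a-5p had counts in 15 of 21 Deceased and 7 of 15 Survived animals before TBI, in 8 and 5 on day 1, in 8 and 4 on day 2, and in 11 and 8 on day 6. Fisher's exact tests of these counts gave p = 0.175, 1.0, 0.721 and 1.0, without regard to RD. Deceased animals held 664 and Survived animals 137 of the counts, in 42 of 84 and 24 of 60 libraries, and RA2267F alone made up 340 of the 664.

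The fit of single time points took all 144 libraries as samples, 4 per NHP, with RD terms shared by the time points. Its p values thus treat the sera of 1 NHP as independent. Within RD, log2 fold changes of miR-122a-5p in Deceased over Survived animals were 0.18 before TBI (SE 0.84, adjusted p = 0.993), 3.19 on day 1 (SE 1.15, unadjusted p = 0.00612, edgeR adjusted p = 0.444), 2.51 on day 2 (SE 1.16, adjusted p = 0.991) and 2.44 on day 6 (SE 1.09, adjusted p = 0.315). On the summed counts of each animal it was 1.85 (SE 0.86, unadjusted p = 0.0380, adjusted p = 0.370). None passed, beside 0 of 290 miRNAs before TBI and on days 2 and 6, 1 (0.345%) on day 1 and 0 of 394 in the summed counts. In these 4 comparisons with no call in edgeR, 14 (before TBI), 9 (day 2), 37 (day 6) and 45 (summed) miRNAs had an unadjusted p under 0.05, and DESeq2 called 9 on day 6 and 0 in the others. The day 1 difference was 1.13 without RA2816M (adjusted p = 0.983), 4.68 without RA2740F (adjusted p = 0.0399) and 4.30 with RD as a number (adjusted p = 0.0440), which both passed. Over animals, the mean level of the 4 time points was 1.74 in Deceased and 1.37 in Survived animals, a difference within RD of 0.75 (permutation p = 0.135, n = 36, adjusted over 12 tests 0.673). Time point by time point, this difference was 1.10 in the sera before TBI (permutation p = 0.224, n = 36), 0.33 in those of day 1 (permutation p = 0.650), 1.00 in those of day 2 (permutation p = 0.199) and 0.57 in those of day 6 (permutation p = 0.550), each 0.673 or more after the same adjustment, so that over animals it was highest before TBI and lowest on day 1, where the count fits gave the reverse order of these 2 time points.

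For miR-148a-3p, no difference between Deceased and Survived animals passed at any time point. Medians were 4846 and 4952 CPM before TBI, 4224 and 6200 CPM on day 1, 3304 and 3261 CPM on day 2, and 3526 and 3642 CPM on day 6. The ranges overlapped throughout, and the 3 lowest values (281, 449 and 460 CPM) came from RA1782F on day 6, RA0724F on day 2 and RA2733F on day 1, all Deceased. Within RD the log2 fold changes of the fit by library were 0.05, -0.40, -0.01 and 0.22 before TBI and on days 1, 2 and 6, with 95% intervals of -0.61 to 0.71, -1.05 to 0.25, -0.67 to 0.66 and -0.44 to 0.88. On summed counts it was 0.09 (95% interval -0.31 to 0.50, edgeR adjusted p = 0.926). Over animals, the mean level was 11.94 in Deceased and 12.12 in Survived animals, a difference within RD of -0.17 (permutation p = 0.361, n = 36).

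Males and females were compared on summed counts. miR-122a-5p had counts in 33 of 76 male and 33 of 68 female libraries, with 211 and 590 counts, and the log2 fold change of males over females was -0.63 (SE 0.77, edgeR adjusted p = 0.712). RA2267F held 340 of the 590 female counts, and without this animal the value was 0.54 (adjusted p = 0.725). For miR-148a-3p the median was 3959 CPM in males and 4537 CPM in females, and the log2 fold change was -0.21 (95% interval -0.58 to 0.16, adjusted p = 0.593). In this comparison 2 of 394 miRNAs (0.508%) passed. Sex was not balanced over RD, with 5 males and 1 female at 7.5 and at 8.0 Gy.

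**Figure D4:**
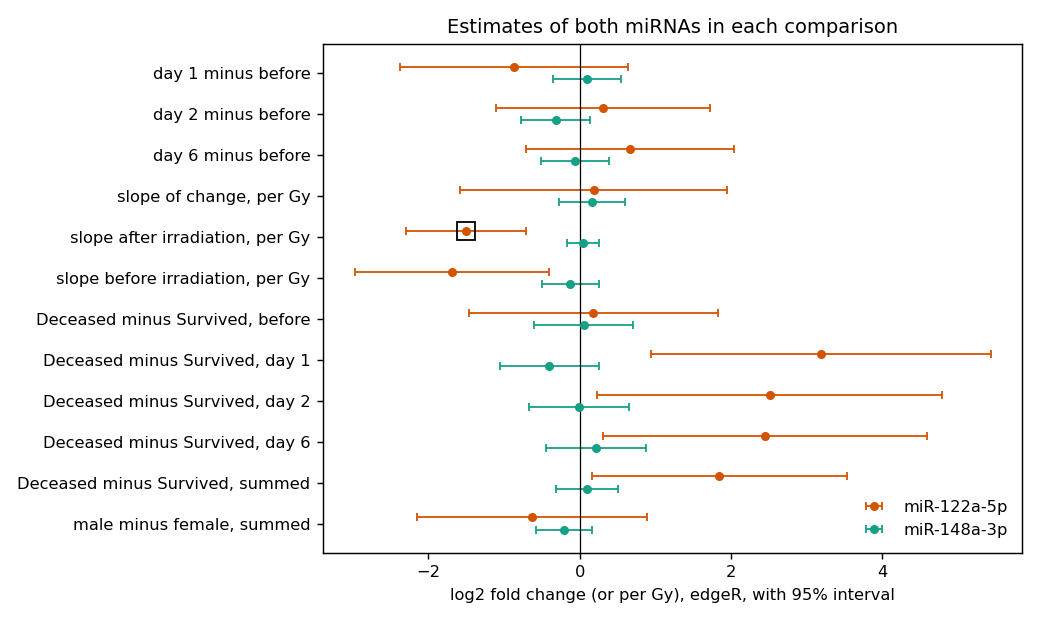
Log2 fold changes and slopes per Gy of miR-122a-5p (orange) and miR-148a-3p (green) from the edgeR fits, with 95% intervals; a black square marks the estimate with an adjusted p under 0.05, and the slopes come from the fit by library. Of the estimates drawn, only the slope of miR-122a-5p after irradiation (-1.50 per Gy) has a square; its slope before irradiation (-1.69 per Gy) and its survival differences on days 1, 2 and 6 and in the summed counts have intervals that leave out 0 before adjustment.

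No correlation between the 2 miRNAs across animals passed at any time point. Pearson's r of their levels was 0.19 before TBI, -0.06 on day 1, 0.23 on day 2 and 0.19 on day 6 (n = 36 each), with permutation p = 0.272, 0.745, 0.168 and 0.278 (0.371 or more after adjustment over 4 relations). Spearman's rho was 0.14, 0.00, 0.29 and 0.22, with permutation p = 0.417, 0.995, 0.0884 and 0.188 (0.354 or more after adjustment). Without the 2 NHPs farthest from the median of miR-122a-5p, r was 0.03, 0.04, 0.19 and 0.21. On CPM from library totals, without TMM factors, r was 0.21, 0.11, 0.07 and 0.22.

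How much of each level stayed with the animal also differed. After time point means were taken out, 18.2% of the variance of miR-122a-5p lay between animals (SD 0.97 between and 2.06 within animals on the log2 scale), and 1.11% of that of miR-148a-3p (SD 0.11 and 1.07). The median over the 290 miRNAs was 4.26%. Sera of one NHP were thus about as different in miR-148a-3p as sera of different NHPs.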

How the data were processed

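Per the paper's methods, the authors made serum libraries with a TruSeq small RNA kit, split the reads by sample with bcl2fastq and, in Genomics Workbench, trimmed them and assigned them to mature miRBase entries. They deposited raw counts of 908 miRNAs in 144 libraries, without normalization, and 0 columns were left unmatched. Time point, RD, sex and survival came from the sample labels. For the serum of RA2816M before TBI, the title was followed although its description reads RA2616M. The members and lists were chosen with earlier results of these data known.

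The 290 miRNAs found in 40% or more of the libraries (394 in sums per animal) were tested by their raw counts in R 4.3.3 with edgeR 4.0.16 (TMM factors, quasi-likelihood F tests, p adjusted after Benjamini and Hochberg, threshold 0.05). SEs were derived from the F statistic, and 95% intervals are the estimate ± its SE times the normal quantile. The 5 miRNAs most like each member by Spearman's rho were named, together with the members of the fixed lists that passed. Sums of an animal's 4 libraries were used for sex and for survival over all time points, and the survival tests had RD as a factor. Levels are log2(TMM CPM + 1). Single values per animal were tested by 100000 permutations or random sign flips (for 6 animals, all sign flips) in Python 3.11.15. Fits were tested on simulated data. Alternatives were RLE, upper-quartile and no scaling factors, TMM without miR-486-5p, other filters, DESeq2 1.42.0, a haemolysis covariate, left-out libraries and animals, sums of days 1, 2 and 6 per animal, other pseudocounts, and the animal as replicate block. The animal names pair the libraries, and their residuals correlated with a mean r of 0.0787 within and 0.00996 between animals. The methods name no pairing, so that the animal was no block in the main fits. The paper's discussion states that the pre-irradiation samples served as baseline to limit bias from individual samples. Miscounts between near-identical family members (miR-148a, miR-148b and miR-152) could not be examined. Mature sequences were not used here.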

Additional observations from a re-analysis of the deposited data

Results flagged for a closer look

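Levels by RD group of 6 NHPs were examined in 36 groups (before TBI, after TBI and their difference, for both miRNAs), and 5 of them held an animal set apart from the others. The nominal rate of the rule, 1 in 20 groups, assumes independent values with a normal spread. The 36 groups share animals and many miR-122a-5p levels stand at 0, so that 5 cannot be set against this rate. For miR-122a-5p at 7.0 Gy, RA2284F had a level of 7.53 before TBI (27 counts), with the next animal at 2.57, and its mean change of -6.59 lay apart from the next value of 0.00. It had 0 counts on days 1 and 2 and 24 on day 6. For miR-122a-5p at 8.5 Gy, RA2685M had a mean level of 1.47 after TBI, with the next animal at 0.45. For miR-148a-3p, RA1782F had a mean level of 10.83 after TBI at 6.5 Gy (next animal 12.10), and RA2021F one of 11.52 at 7.0 Gy (next animal 12.01). The day 6 library of RA1782F held the lowest level of miR-148a-3p of all (281 CPM), and that of RA2021F had only 11174 counts in all.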

How the results depend on the processing

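The upper-quartile factors could not be fitted to single libraries, and a 60% filter left miR-122a-5p out of those fits. miR-148a-3p passed in no fit. The slope of miR-122a-5p after TBI no longer passed with library totals alone (-0.53 per Gy), DESeq2 (-0.90), or 1 sum of days 1, 2 and 6 per NHP (-1.36, and -1.17 with DESeq2). Its day 1 change passed without the day 1 library of RA2816M (-2.47), and its day 1 difference between Deceased and Survived with RD as a number (4.30). With library totals alone the median of all miRNAs also moved, by -0.67 to 0.43 over the comparisons made. All other sign changes were of values that passed in neither fit, and the cause was not tested. For miR-122a-5p they were, with library totals alone, the changes on day 1 (0.23) and day 2 (-0.38) and the survival difference before TBI (-0.43); with DESeq2, that difference (-0.0019) and the sex difference (0.16, and 0.15 with RD as a factor); without the day 2 library of RA1782F, the day 2 change (-1.78); and for the slope of the change, -0.15 without the library of RA2816M and -0.31 without low totals. With the replicate block the day 2 change was -1.21 and that slope -0.24. The block was fitted to the changes on days 1, 2 and 6 and to the slope of the change, in which neither miRNA passed with or without it. RD does not vary within an animal, so slopes of the level could not be fitted with it.

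For miR-148a-3p they were the survival difference before TBI (-0.10 with DESeq2 and RLE, -0.0065 without miR-486-5p, -0.58 with library totals), on day 2 (0.0326 with RD as a number, 0.0320 with no RD term, 0.13 with the haemolysis covariate, 0.0134 with sex, 0.0942 without low totals, 0.0048 without the library of RA1782F), on day 6 (-0.18 with DESeq2 and RLE, -0.37 with library totals, -0.0033 without low totals) and in sums (-0.49 with library totals); the changes on day 1 (-0.0031 with no filter) and day 6 (0.0419 with the haemolysis covariate, 0.0039 without low totals); and the slope after TBI (-0.0125 with the haemolysis covariate).

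Over animals, sign changes of miR-122a-5p were, with library totals, the day 6 change (-0.0594), the 8.0 Gy change (-0.0119) and the slope of the change (0.0313); without low totals, the same changes (-0.12 and -0.30) and the slope within Survived (-0.25); the 8.0 Gy change with a pseudocount of 0.5 CPM (-0.12); and the slope within Survived with 10 CPM (-0.0397). Those of miR-148a-3p were, with library totals, the changes at 6.0 Gy (-0.0601) and 8.5 Gy (-0.46) and the slopes of the change (-0.0626), after TBI (0.20, and 0.0465 within Survived) and before TBI (0.26); without low totals, the day 1 change (0.0301) and the slope within Deceased (0.0410); and without the 6.5 Gy group, the slopes of the change (-0.11) and before TBI (0.0674). The day 1 correlation of both miRNAs became 0.107 and 0.0465 with library totals and without low totals.

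Leaving out each NHP in turn, miR-122a-5p ranged from -2.39 (without RA2816M, passing) to -0.14 on day 1, -1.83 to 0.71 on day 2 and -0.27 to 0.91 on day 6, from -1.88 to -1.12 per Gy for the slope after TBI, -3.18 to -1.74 on day 2, -2.58 to -1.32 on day 6 and -0.43 to 0.64 for the change, and from -0.55 to 2.74 before TBI and 1.13 to 4.68 on day 1 for survival, and -1.24 to 0.54 for sex. miR-148a-3p ranged from -0.0336 to 0.17 on day 1, -0.21 to 0.0445 on day 6, -0.0150 to 0.12 per Gy after TBI, and for survival -0.10 to 0.18, -0.22 to 0.13 and -0.0294 to 0.34 before TBI and on days 2 and 6.

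Calls over all miRNAs numbered 19 on day 1 (6 with library totals, 11 with the haemolysis covariate, 12 with the 60% filter or without the day 6 library of RA2267F) and 30 for the slope after TBI (0 with library totals, 14 with DESeq2, 20 with RLE), and 19 on day 6 (4 with the replicate block, 5 with library totals, 51 with no filter). With a median of 0 counts, miR-122a-5p is limited by depth, and its estimates rest on a few libraries.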
